A study of Mus musculus with 28 samples.

Results

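The nuclei described here came from the colon of specific pathogen-free (SPF) mice and were sorted into a neuronal and a non-neuronal fraction. They were taken as the 4 libraries labelled SPF colon positive and the 4 labelled SPF colon negative, 8 of the 28 libraries of the series. All genes were compared across the 2 fractions. All mice were C57BL/6 and had received AAV9-CaMKII-EGFPKASH intravenously 5 weeks earlier, so the virus and its promoter were common to both fractions and to the germ-free (GF) and small intestinal libraries of the series. EGFPKASH is a green fluorescent protein anchored in the nuclear envelope. The longitudinal muscle with the attached myenteric plexus was peeled off the colon and homogenised, and single intact nuclei were gated on the DNA dye DAPI. EGFP-positive nuclei form the neuronal fraction and EGFP-negative nuclei the non-neuronal fraction. The sort therefore depended on infection by the virus and on activity of a CaMKII promoter, and a neuron that lacked either would fall in the non-neuronal fraction. The labels give no age or sex, do not say how many animals went into a library, and do not say that a replicate number marks an animal. The p-values below thus measure the spread between libraries, which may be technical in part.

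The myenteric plexus is the network of ganglia between the muscle layers of the gut, and its neurons drive peristalsis without input from the brain. Excitatory motor neurons release acetylcholine and tachykinins onto the muscle, inhibitory motor neurons release nitric oxide and vasoactive intestinal peptide, and interneurons and sensory neurons join them into circuits. The surrounding wall holds smooth muscle, interstitial cells of Cajal that pace the muscle, fibroblast-like cells, glia, macrophages, vessels and an outer mesothelium. RNA taken from nuclei is rich in unspliced transcripts and in noncoding RNAs that stay in the nucleus.

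The 8 libraries held 2420837 to 4618379 counts and 12240 to 15552 genes with 10 counts or more. Levels are given as CPM, a library's counts scaled to a common total, and 3 counts corresponded to 0.65 to 1.24 CPM. Across genes, log levels correlated at r = 0.783 to 0.856 between neuronal libraries, 0.723 to 0.797 between non-neuronal libraries and 0.589 to 0.693 between fractions, as a description. No libraries were duplicates of each other. Xist, the RNA that silences an X chromosome in females, stood at 11.6 to 63.0 CPM in the libraries numbered 1 and 2 and at 14149 to 16058 CPM in those numbered 3 and 4, in both fractions alike. The Y chromosome genes Ddx3y, Kdm5d, Eif2s3y and Uty went the other way. Their sum was 379 to 674 CPM in libraries 1 and 2 and 2.09 to 4.03 CPM in libraries 3 and 4. By these transcripts libraries 1 and 2 were male and libraries 3 and 4 female, though the labels do not say so. Mitochondrially encoded transcripts took 0.511% ± 0.0735 (SD, n = 4) of the counts in neuronal and 5.25% ± 1.77 in non-neuronal libraries. The groups did not overlap (exact two-sided permutation test, p = 0.0286, the smallest that 4 against 4 can give; 0.0571 adjusted over 4 shares). Ribosomal protein transcripts took 0.218% ± 0.0486 and 0.286% ± 0.0459 of the counts (exact permutation p = 0.114, adjusted 0.143). How far these differences in RNA makeup bear on the gene results was not tested.

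Neuronal and non-neuronal nuclei differed at 2270 of the 20964 genes tested (10.8%; edgeR quasi-likelihood F test, Benjamini-Hochberg adjusted p below 0.05, the threshold for every call below). Of these, 686 genes (3.27%) were higher and 1584 (7.56%) lower in neuronal nuclei, and the median log2 fold change over all genes tested was -0.05. Neuronal minus non-neuronal is the direction of every log2 fold change given. With only the SPF libraries of low Xist (numbers 1 and 2) kept, 420 genes were called, and with only those of high Xist (numbers 3 and 4) 837. The germ-free libraries, all low in Xist, stayed in both fits and shared in the estimate of the spread. Without non-neuronal library 4 the number called higher was 372, and without non-neuronal library 3 it was 446. In the 4 neuronal libraries 1723 genes lay above all 4 non-neuronal libraries, and 1981 lay below them. In such sorted bulk RNA, fewer cells of a type and less RNA per cell cannot be told apart. Gene lists are described by how many tested members were called and by their median, beside these figures for all genes.

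**Figure D1:**
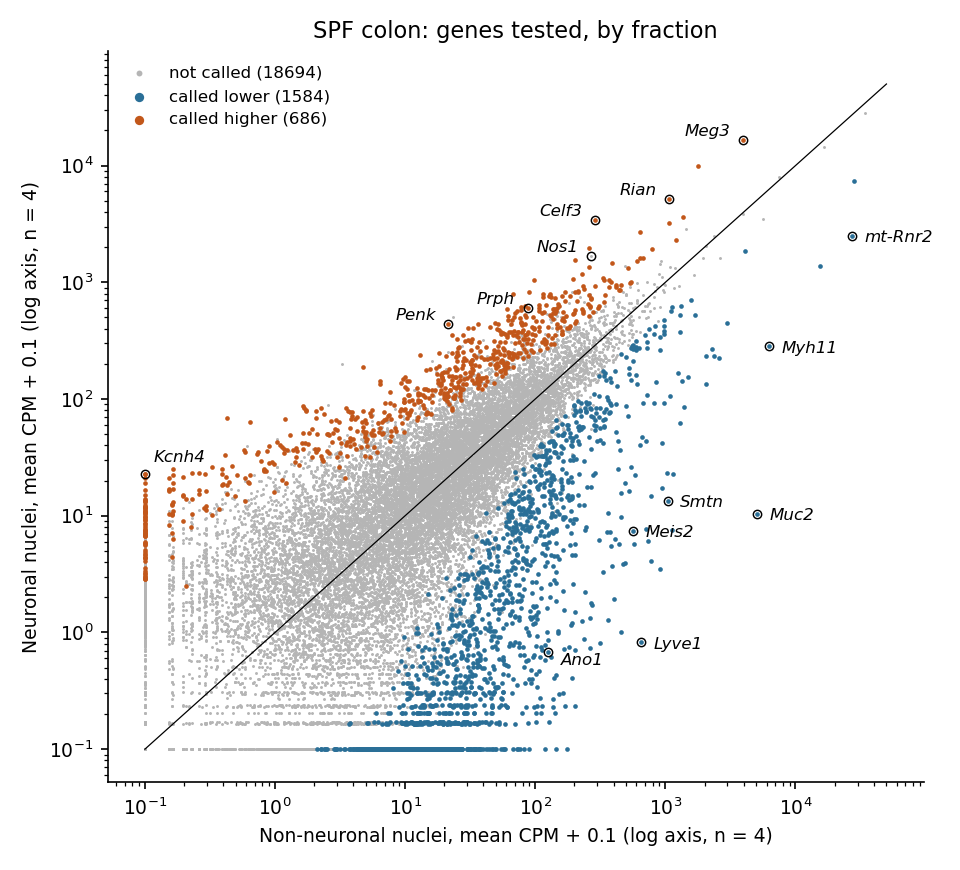
Each point is 1 of the 20964 genes tested, with its mean CPM + 0.1 in the 4 non-neuronal libraries on the horizontal and in the 4 neuronal libraries on the vertical log axis, and the line marks equal levels. Genes called higher (686) lie above the line and genes called lower (1584) below it.

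Among 14 pan-neuronal markers fixed for the enteric nervous system, 6 were higher in neuronal nuclei, none was lower and 11 lay above every non-neuronal library, with a median log2 fold change of 2.06. Prph, which encodes the peripheral neuron filament peripherin, stood at 738, 759, 454 and 447 CPM in neuronal libraries 1 to 4 and at 152, 109, 45.2 and 42.8 CPM in non-neuronal libraries 1 to 4. Its log2 fold change was 2.74 ± 0.53 (SE; edgeR adjusted p = 0.000641). Every neuronal library was well above every non-neuronal one. Elavl3, an RNA-binding protein made by nearly all neurons, ran from 167 to 312 CPM against 14.4 to 32.9 CPM (log2 fold change 3.29 ± 0.8, edgeR adjusted p = 0.00683). Map2, a microtubule protein of neurons, averaged 1075 against 195 CPM (2.42 ± 0.38, edgeR adjusted p = 2.29e-05). The groups did not overlap for these genes either.

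The other pan-neuronal calls were less firm. Elavl4 averaged 548 against 143 CPM, Uchl1, a ubiquitin hydrolase abundant in neurons, 351 against 22.9 CPM, and Rtn1, a reticulon of the endoplasmic reticulum, 375 against 87.3 CPM. The Elavl4 call ended in 7 of the 8 fits that leave out 1 library (highest edgeR adjusted p 0.0942, without non-neuronal library 3), and the Rtn1 call in 4 of 8 (highest 0.0724, without non-neuronal library 2). That of Uchl1 ended without non-neuronal library 2 (0.0508). Snap25, a core protein of transmitter release, stood at 840, 1617, 1514 and 1563 CPM against 703, 596, 295 and 359 CPM and was not called (edgeR adjusted p = 0.242). With the spread estimated from these 8 libraries alone Snap25 was called (edgeR adjusted p = 0.00509), in a range of 3.52e-05 to 0.793 over all alternative settings. Ret, the receptor for glial cell line-derived neurotrophic factor that enteric precursors need, averaged 602 against 144 CPM (edgeR adjusted p = 0.0631). With a term for the libraries that Xist sets apart Ret was called (0.0209; 1.6e-06 to 0.324 over all alternative settings). Snap25 and Ret lay higher in every neuronal library than in any non-neuronal one.

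**Figure D2:**
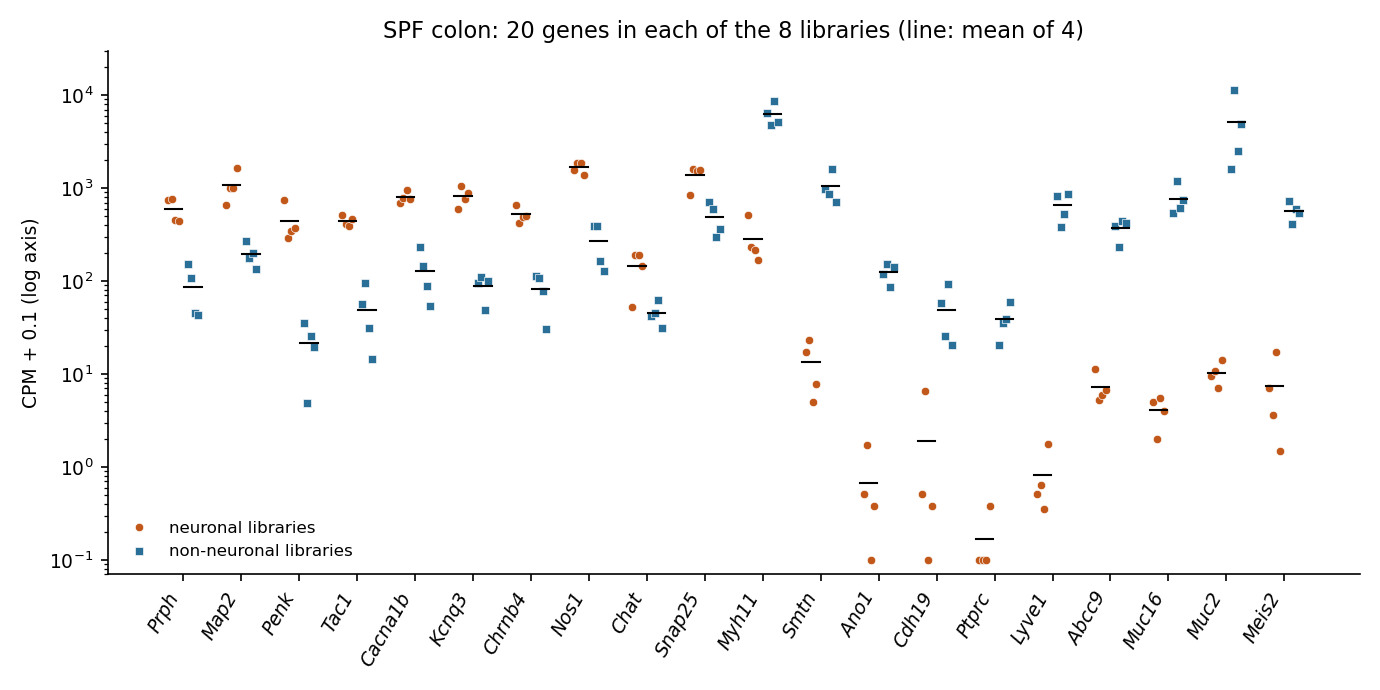
Points give the level of 20 genes in each of the 8 libraries, as CPM + 0.1 on a log axis, for neuronal (circles) and non-neuronal (squares) libraries, with a line at the mean of 4. From Prph to Snap25 the neuronal libraries lie higher, with overlap at Chat, and from Myh11 to Meis2 every neuronal library lies below every non-neuronal one.

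The summed pan-neuronal markers showed that neuronal transcripts were present in both fractions. Their sum was 5232, 6807, 6108 and 7105 CPM in neuronal libraries 1 to 4 and 2242, 1695, 1077 and 1049 CPM in non-neuronal libraries 1 to 4. The lowest neuronal library exceeded the highest non-neuronal one, and the level in the non-neuronal fraction was not 0. The same sum was 63.9 to 824 CPM in the non-neuronal libraries of the SPF small intestine. The part of these transcripts in the fold changes of neuronal genes was not tested.

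**Figure D3:**
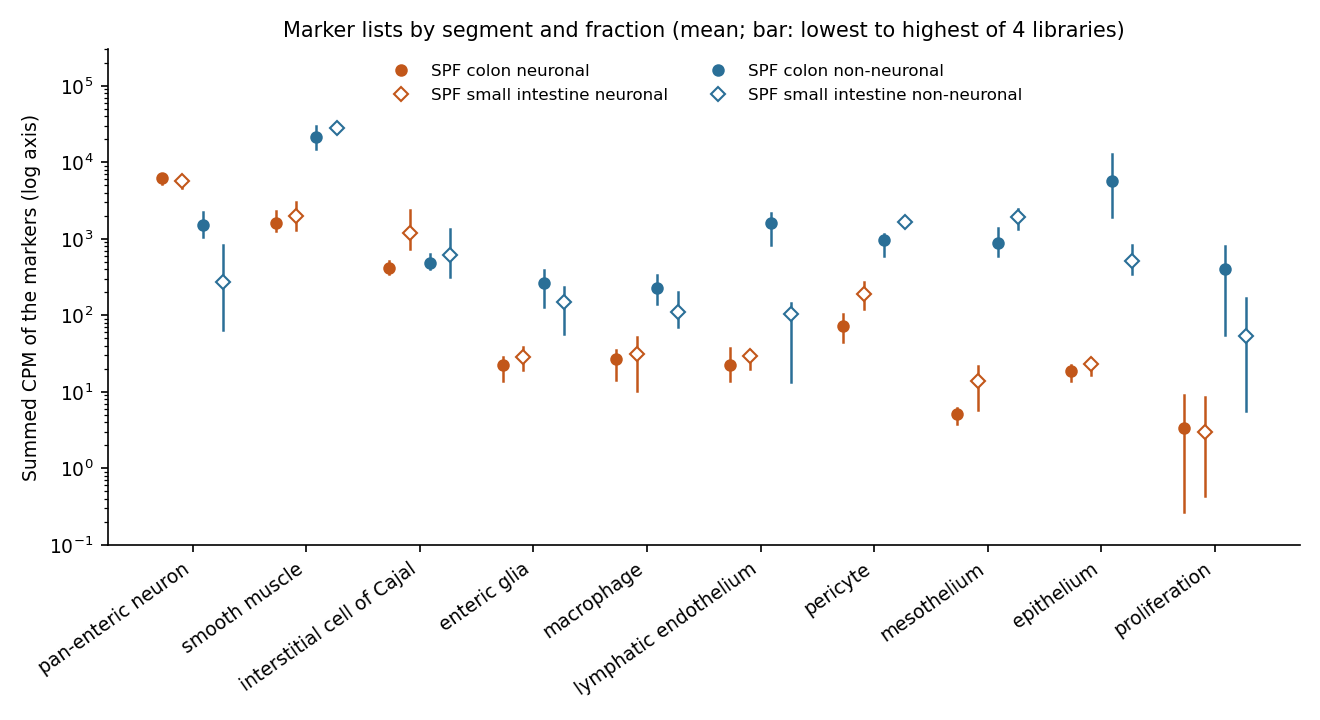
The summed CPM of each marker list is shown on a log axis for both fractions of the SPF colon and SPF small intestine, as the mean of 4 libraries with a bar from the lowest to the highest. In the colon the pan-neuronal sum is higher in neuronal nuclei but reaches 1049 to 2242 CPM in the non-neuronal libraries, while the epithelial sum is 13.8 to 22.5 CPM in neuronal libraries.

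Of the 14 tested precursors of neuropeptides, 4 were higher in neuronal nuclei and none was lower (median log2 fold change 2.45, or 1.83 with genes absent from a fraction set at their bound). Penk, the enkephalin precursor, stood at 752, 288, 342 and 369 CPM in neuronal libraries and at 35.1, 4.76, 25.8 and 19.4 CPM in non-neuronal libraries, a mean ratio of 20.6 (log2 fold change 4.35 ± 0.86, edgeR adjusted p = 0.00102). Gal, the precursor of the peptide galanin, stood at 161, 70.4, 55.1 and 25.1 CPM against 6.25, 3.46, 1.3 and 4.28 CPM (4.33 ± 0.88, edgeR adjusted p = 0.000794). Cartpt, the precursor of the CART peptides, averaged 35.4 against 0.643 CPM (5.69 ± 1.2, edgeR adjusted p = 0.00117). For these peptides even the lowest neuronal library was several times above the highest non-neuronal one. Tac1, which encodes substance P, averaged 446 against 49.4 CPM (edgeR adjusted p = 0.0178). That call ended without non-neuronal library 3 (0.0584) or 4 (0.0553). Not every peptide separated the fractions: Sst, the somatostatin precursor, averaged 202 and 132 CPM and Vip, vasoactive intestinal peptide, 121 and 49.2 CPM, with overlapping libraries (edgeR adjusted p = 0.677 and 0.366). Grp, the gastrin-releasing peptide precursor, averaged 30.9 against 4.03 CPM without overlap (edgeR adjusted p = 0.182, in a range of 0.0171 to 0.798 over all alternative settings).

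The enzymes of the classical transmitters were less clear cut. Nos1, the neuronal nitric oxide synthase of inhibitory motor neurons, stood at 1578, 1868, 1877 and 1382 CPM in neuronal and at 394, 386, 164 and 128 CPM in non-neuronal libraries. The fractions did not overlap, but the call was missed (log2 fold change 2.6 ± 0.89, edgeR adjusted p = 0.0626). With the spread estimated from these 8 libraries alone, the edgeR adjusted p was 0.000153, and over all alternative settings it ranged from 3.39e-10 to 0.32, with 0.0296 under a term for the libraries that Xist sets apart. Chat, which makes acetylcholine, stood at 52.5, 192, 189 and 146 CPM against 41.8, 45, 62.1 and 31.2 CPM (edgeR adjusted p = 0.361, in a range of 0.0285 to 0.668 over all alternative settings). Its neuronal library 1 lay among the non-neuronal ones. Ache, the enzyme that breaks acetylcholine down, averaged 185 against 27.3 CPM (edgeR adjusted p = 0.0307), and its call ended in 6 of the 8 fits that leave out 1 library (highest 0.0915, without non-neuronal library 3). In the list of nitric oxide, VIP and PACAP genes, the receptor Adcyap1r1 was higher and the receptor Vipr1 lower. The Adcyap1r1 call ended in 3 of 8 such fits (highest 0.0573, without neuronal library 1). Vipr1 stood at 5.22 to 37.5 CPM in non-neuronal libraries and at 0 to 0.279 CPM in neuronal ones (edgeR adjusted p = 0.0128).

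Genes of transmitter release rose in part: 6 of 24 were higher, none was lower, and 12 of 24 lay above every non-neuronal library (median log2 fold change 1.65). Unc13a, which primes synaptic vesicles, stood at 996, 736, 805 and 609 CPM against 32.8, 146, 72.8 and 18.9 CPM (3.45 ± 0.68, edgeR adjusted p = 0.00115). It overlaps Colgalt1 on the opposite strand, and the sources used here do not state whether counting used strand. Reads of such pairs cannot then be told apart. The same holds below for Grin1, Oprm1, Grm7, Celf5, Meg3, Mylk, Ano1, Csf1r, Myom1, Hmx3 and others. Snap91, which acts in vesicle retrieval, averaged 439 against 51.5 CPM (3.09 ± 0.57, edgeR adjusted p = 0.000325). Pclo, a scaffold of the active zone, averaged 2674 against 635 CPM (2.02 ± 0.46, edgeR adjusted p = 0.00471). No library of one fraction reached the range of the other for these 3 genes. The calls of Cplx1 and Bsn ended in 7 and 6 of the 8 fits that leave out 1 library, with highest adjusted p of 0.0987 without neuronal library 1 and 0.151 without neuronal library 1.

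Of 22 voltage-gated sodium and calcium channel genes, 7 were higher and 1 lower in neuronal nuclei (median log2 fold change 1.17). Cacna1b, the pore of N-type calcium channels at nerve terminals, stood at 693, 783, 952 and 762 CPM against 230, 145, 89.5 and 54.4 CPM (2.59 ± 0.51, edgeR adjusted p = 0.000726). Cacna1a, the P/Q-type pore, averaged 597 against 108 CPM (2.44 ± 0.34, edgeR adjusted p = 4.65e-06). Scn9a, a sodium channel of peripheral neurons, averaged 313 against 28.7 CPM (3.47 ± 0.62, edgeR adjusted p = 0.000183). Neuronal and non-neuronal libraries did not overlap for these channels. The exception in direction was Cacna1c, the L-type channel that carries calcium into smooth muscle, which stood at 261, 339, 342 and 428 CPM in neuronal and at 1012, 784, 1055 and 807 CPM in non-neuronal libraries (-1.46 ± 0.29, edgeR adjusted p = 0.000654). Every non-neuronal library was above every neuronal one.

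Potassium and HCN channels showed 9 genes higher and 1 lower of 28 (median log2 fold change 1.79). Kcnq3, a subunit of the M-current that damps firing, stood at 590, 1041, 758 and 889 CPM against 96.0, 111, 49.1 and 100 CPM (3.16 ± 0.65, edgeR adjusted p = 0.00201). Kcnj6, an inward rectifier opened by G proteins, averaged 84.0 against 2.16 CPM (5.28 ± 1.06, edgeR adjusted p = 0.000822). Kcnd2, an A-type channel, averaged 53.8 against 2.91 CPM (4.15 ± 0.86, edgeR adjusted p = 0.00101). Kcnh4, of the ether-a-go-go family, was at 20.6, 37.6, 14.4 and 17.3 CPM in neuronal libraries and at 0 counts in all 4 non-neuronal libraries, at least 19.2-fold higher against a floor of 3 counts per library (edgeR adjusted p = 0.00184). The sodium-activated channels Kcnt1 and Kcnt2 averaged 584 and 585 CPM against 77.6 and 139 CPM (edgeR adjusted p = 0.000227 and 0.00133). These genes were high in all 4 neuronal libraries. Kcna1, a delayed rectifier, was the 1 channel of the list called lower, at 14.1 to 45.7 CPM in non-neuronal and 0 to 0.413 CPM in neuronal libraries (edgeR adjusted p = 0.0028).

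Transmitter receptors divided, with 6 of 29 higher and 3 lower (median log2 fold change 1.06). Chrnb4, a subunit of the ganglionic nicotinic receptor, stood at 666, 421, 494 and 504 CPM against 114, 109, 78.6 and 30.7 CPM (2.6 ± 0.62, edgeR adjusted p = 0.00574). Its partner Chrna3 averaged 459 against 131 CPM and was not called (edgeR adjusted p = 0.0586), but was with a term for the libraries that Xist sets apart (0.0309; 0.000281 to 0.464 over all alternative settings). Oprm1, the mu opioid receptor, averaged 154 against 24.6 CPM (2.61 ± 0.66, edgeR adjusted p = 0.00709). Both opioid signal and receptor transcripts, Penk and Oprm1, were thus higher in the neuronal fraction. Grm7, a metabotropic glutamate receptor, averaged 234 against 20.6 CPM (3.46 ± 0.73, edgeR adjusted p = 0.00155). Grin1, the obligate NMDA receptor subunit, averaged 368 against 56.3 CPM (2.66 ± 0.59, edgeR adjusted p = 0.0024). On the other side, P2rx7, an ATP-gated channel, averaged 10.2 CPM in neuronal nuclei against 152 CPM in non-neuronal nuclei (-3.95 ± 0.92, edgeR adjusted p = 0.00402). Tacr1, the substance P receptor, averaged 7.49 and 83.1 CPM (-3.51 ± 0.91, edgeR adjusted p = 0.00861). For Tacr1 the non-neuronal libraries stood at 114, 113, 86.7 and 18.1 CPM, all above the highest neuronal library at 9.91 CPM.

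The axonal cytoskeleton list had 10 members higher and none lower of 21, the most called higher of any neuronal list (median log2 fold change 2.23). Beside Prph and Map2, the microtubule proteins Map1b and Mapt averaged 1527 and 374 CPM against 609 and 79.4 CPM (edgeR adjusted p = 0.000733 and 0.0041). Kif1a, the motor that carries vesicle precursors along axons, averaged 1346 against 260 CPM (2.31 ± 0.57, edgeR adjusted p = 0.00934). Ank2, which anchors channels to the axonal membrane, averaged 3653 against 1372 CPM (1.36 ± 0.29, edgeR adjusted p = 0.00145). These genes also had appreciable levels in the non-neuronal fraction.

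Neuronal splicing and RNA-binding proteins had 7 of 16 members higher and none lower (median log2 fold change 1.92). Celf3 stood at 4798, 3958, 3157 and 1801 CPM against 590, 288, 159 and 113 CPM (3.56 ± 0.61, edgeR adjusted p = 0.000512). Its relative Celf5 averaged 239 against 12.8 CPM (4.16 ± 0.92, edgeR adjusted p = 0.00338). Khdrbs2, a splicing regulator, averaged 342 against 60.6 CPM (2.46 ± 0.59, edgeR adjusted p = 0.00443). The lowest Celf3 level of a neuronal library was about 3 times the highest of a non-neuronal one.

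Axon guidance and adhesion genes were called in both directions, 7 higher and 3 lower of 32 (median log2 fold change 1.34, or 1.29 with absent genes at their bound). Higher in neuronal nuclei were the guidance receptor Unc5c (360 against 54.4 CPM, edgeR adjusted p = 0.000623), its relative Unc5d (64.7 against 2.60 CPM, 0.00319) and the secreted cue Slit2 (417 against 108 CPM, 0.000733). Dscam, a recognition molecule of the immunoglobulin family, stood at 187, 260, 266 and 132 CPM against 25.4, 6.06, 30.5 and 48.1 CPM (2.92 ± 0.53, edgeR adjusted p = 0.000246). The genes called lower were semaphorins and an ephrin receptor. Sema3a, a secreted repellent of axons, averaged 15.1 CPM in neuronal nuclei against 179 CPM in non-neuronal nuclei (-3.6 ± 0.6, edgeR adjusted p = 6.35e-05). Sema3c averaged 6.35 and 101 CPM (edgeR adjusted p = 0.00163), and Epha7 43.5 and 298 CPM (edgeR adjusted p = 1.97e-05). All 3 were lower in every neuronal library. Of 56 clustered protocadherins tested, Pcdha2 and Pcdha3 were called higher, and the members of each cluster share exons, so their separate counts are uncertain. The Pcdha3 call ended in 5 of the 8 fits that leave out 1 library (highest edgeR adjusted p 0.0996, without non-neuronal library 4). The median of the family was 0.09.

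Most listed transcription factors of enteric neurons did not separate the fractions: 1 of 21 was higher, 2 were lower and the median log2 fold change was 0.75. Etv1 averaged 407 against 175 CPM, but that call ended in 4 of the 8 fits that leave out 1 library (highest edgeR adjusted p 0.0778, without non-neuronal library 1). Meis2, a homeodomain factor also used in mesenchyme, went the other way, with 7.02, 3.52, 17.2 and 1.39 CPM in neuronal and 733, 407, 590 and 535 CPM in non-neuronal libraries (-6.27 ± 0.67, edgeR adjusted p = 2.11e-07). Even the lowest non-neuronal library held far more Meis2 than any neuronal library. Of the RET and endothelin list none of the 7 tested genes was called. Of the CaMKII subunits, whose promoter drove the tag, Camk2b averaged 418 against 44.6 CPM (edgeR adjusted p = 0.0156, and 0.0515 without non-neuronal library 3). Camk2a averaged 489 against 129 CPM without overlap (edgeR adjusted p = 0.0552, and 0.0134 with the Xist term, in a range of 0.000184 to 0.418 over all alternative settings). Camk2d and Camk2g overlapped. The 15 genes of cholesterol synthesis were tested and none was called, although 8 of the 15 lay above every non-neuronal library (median log2 fold change 1.29).

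**Figure D4:**
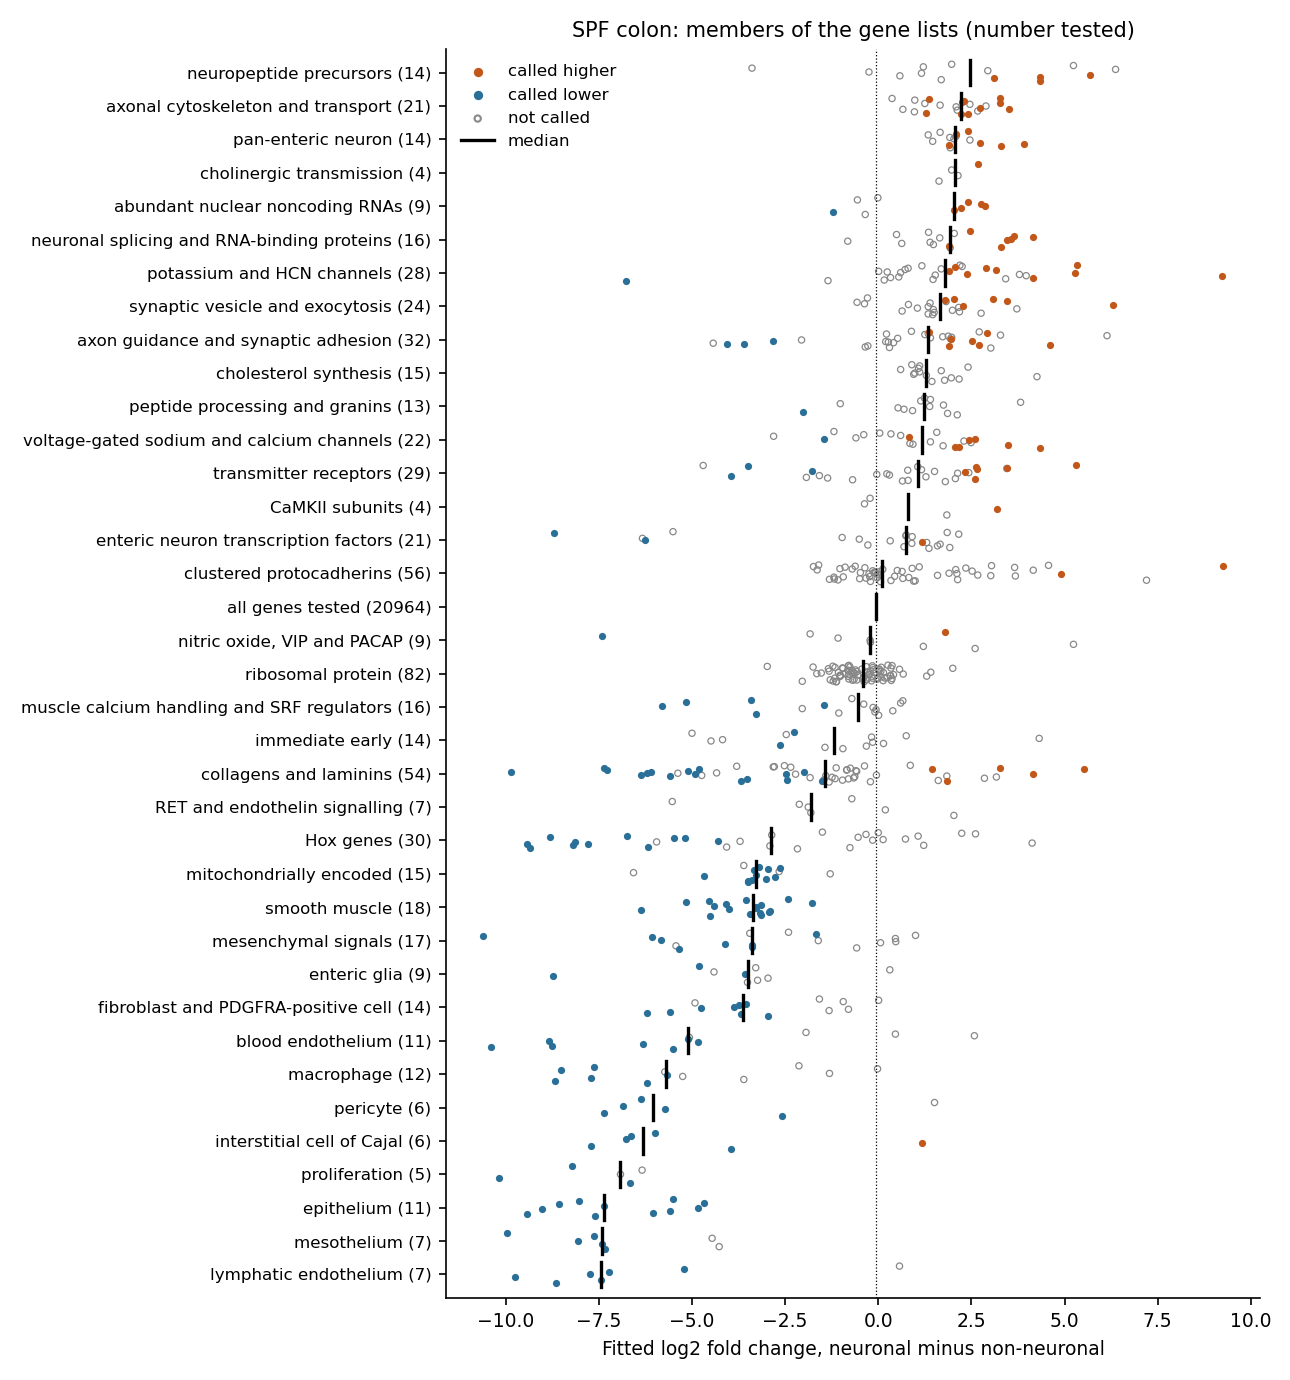
For each gene list the points give the log2 fold change, neuronal minus non-neuronal, of every tested member, with called members coloured and the median marked. Most neuronal lists have medians above 1, with CaMKII subunits at 0.81, transcription factors at 0.75, clustered protocadherins at 0.09, the nitric oxide, VIP and PACAP list at -0.21 and RET and endothelin signalling at -1.81, and every list of another cell type has a median below -1.

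Long noncoding RNAs of the imprinted Dlk1-Dio3 region were among the transcripts with most counts. Meg3 (chr12:109541001-109571726 in GRCm38, plus strand) stood at 17866, 19549, 17187 and 11863 CPM in neuronal and at 4920, 6435, 2669 and 1790 CPM in non-neuronal libraries (2.02 ± 0.42, edgeR adjusted p = 0.00306, but 0.174 by limma-voom). Rian (chr12:109603940-109661716, plus strand), downstream on the same strand, stood at 4205, 4994, 5471 and 5973 CPM against 1428, 1098, 918 and 846 CPM (2.23 ± 0.24, edgeR adjusted p = 1.81e-08). Mirg (chr12:109729764-109749460, plus strand) averaged 625 against 82.7 CPM, and its call ended in 3 of the 8 fits that leave out 1 library (highest edgeR adjusted p 0.0728, without non-neuronal library 4). The 3 genes were higher in each neuronal library than in any non-neuronal one. Snhg11, a host gene of small nucleolar RNAs, averaged 9829 against 1796 CPM (edgeR adjusted p = 0.0241, but 0.0718 and 0.0747 without non-neuronal library 3 and 4). Malat1, an RNA of nuclear speckles in most cell types, averaged 28032 and 34500 CPM with overlapping libraries (edgeR adjusted p = 0.197, in a range of 0.000465 to 0.517 over all alternative settings). Neat1, the scaffold of paraspeckles, averaged 1843 and 4102 CPM, a call that ended without non-neuronal library 2 (edgeR adjusted p = 0.00511 with it and 0.154 without).

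Markers of the other cells of the gut wall were lower in neuronal nuclei. Over 13 marker lists, 79 of 111 tested genes (71.2%) were lower, 31 were not called, and Etv1, which the neuronal list also holds, was the 1 called higher. The proliferation list, which marks no cell type, is among the 13, with 3 of 5 tested genes lower. All 18 smooth muscle genes were lower and none overlapped (median log2 fold change -3.37). The Myocd call ended in 5 of the 8 fits that leave out 1 library (highest edgeR adjusted p 0.0975, without neuronal library 1). Myh11, the smooth muscle myosin heavy chain, stood at 517, 231, 216 and 168 CPM in neuronal and at 6417, 4742, 8668 and 5143 CPM in non-neuronal libraries (-4.51 ± 0.38, edgeR adjusted p = 6.99e-09, but 0.391 by limma-voom). Smtn, a cytoskeletal protein of contractile muscle, averaged 13.3 and 1043 CPM (-6.38 ± 0.49, edgeR adjusted p = 1.67e-11). Mylk, the kinase that starts contraction, averaged 62.4 and 1299 CPM (-4.4 ± 0.37, edgeR adjusted p = 4.72e-11). Smooth muscle transcripts were low but measurable in the neuronal fraction, whose summed smooth muscle markers were 1265 to 2329 CPM against 15004 to 29960 CPM.

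Relaxing and contracting parts of the muscle machinery did not all move. Ppp1r12a, the myosin phosphatase subunit, averaged 233 in neuronal and 2382 CPM in non-neuronal nuclei (-3.42 ± 0.25, edgeR adjusted p = 5.76e-12). The calcium release channels Ryr2 and Itpr1 averaged 619 and 388 CPM in neuronal nuclei against 460 and 390 CPM in non-neuronal nuclei, with overlapping libraries (edgeR adjusted p = 0.437 and 0.937). Srf, the serum response factor that drives contractile genes, averaged 30.7 and 30.3 CPM (edgeR adjusted p = 1.0). In all, 5 of the 16 genes of muscle calcium handling and SRF regulation were lower, with the less firm call of Myocd among them.

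The CArG box is the sequence that SRF binds. A search of the 250 bases before each start in the RefSeq promoter table (GRCm38.p6) covered 12749 of the 20964 genes tested. A box, which reads as the same pattern on both strands, was in 183 of them (1.44%) and in 1.47% of all 32851 promoters of the table. It was in 36 of 1039 promoters of genes called lower (3.46%, Wilson 95% interval 2.51 to 4.76), in 6 of 430 of genes called higher (1.40%, 0.641 to 3.01) and in none of the 13 matched promoters of the smooth muscle list. The 4 lower genes whose boxes are printed here encode proteins of the actin and myosin cytoskeleton. They were chosen after their values were seen, to show the box in its setting beside 1 gene called higher. Capitals mark the box, and each run is read 5′ to 3′ on the strand of the gene.
Myl9: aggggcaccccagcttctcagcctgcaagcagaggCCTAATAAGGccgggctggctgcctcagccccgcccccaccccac
Actg1: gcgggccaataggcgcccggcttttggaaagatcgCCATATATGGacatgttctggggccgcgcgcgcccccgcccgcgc
Cnn2: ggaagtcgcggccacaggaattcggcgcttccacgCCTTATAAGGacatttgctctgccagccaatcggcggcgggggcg
Myom1: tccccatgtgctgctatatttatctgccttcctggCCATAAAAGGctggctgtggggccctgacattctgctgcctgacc
Elavl4: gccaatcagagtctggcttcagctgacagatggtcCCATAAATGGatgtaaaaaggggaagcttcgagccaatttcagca

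The printed windows lie at chr2:156775268-156775347 for Myl9 and chr10:79988509-79988588 for Cnn2 on the plus strand, and at chr17:71019423-71019502 for Myom1 on the plus strand. Those of Actg1 and Elavl4 lie at chr11:120348541-120348620 and chr4:110287513-110287592 on the minus strand. The box began 161 bases before the start in Myl9, 90 in Actg1, 56 in Cnn2, 99 in Myom1 and 46 in Elavl4. Myl9, a light chain of smooth muscle myosin, averaged 65.7 in neuronal and 290 CPM in non-neuronal nuclei (edgeR adjusted p = 0.00287). Actg1, cytoplasmic gamma actin, averaged 76.7 and 339 CPM (0.000396), Cnn2, a calponin, 1.74 and 75.9 CPM (0.000545), and Myom1, a myomesin of the contractile lattice, 22.6 and 1139 CPM (6.79e-07). A box was thus found before genes of either direction, and a match in these letters is a description, not evidence of binding.

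Interstitial cells of Cajal express the chloride channel Ano1 and the receptor Kit. Ano1 stood at 0.413, 1.62, 0 and 0.279 CPM in neuronal and at 119, 154, 86.9 and 142 CPM in non-neuronal libraries (-7.72 ± 0.86, edgeR adjusted p = 5.81e-08). Kit averaged 8.28 and 123 CPM, and its call ended in 7 of the 8 fits that leave out 1 library (edgeR adjusted p = 0.0428, highest 0.104 without neuronal library 2). Prkcq, a protein kinase C of these cells, averaged 0.239 and 25.9 CPM (-6.64 ± 1.1, edgeR adjusted p = 5.58e-05). The neuronal libraries held 3 Prkcq counts in all, and 8 of Ano1. Of the 6 markers, 5 were lower and Etv1 was higher.

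Fibroblast and PDGFRA-positive cell markers were lower for 8 of 14 genes (median log2 fold change -3.62). Col3a1 and Col1a1, the fibrillar collagens, averaged 9.56 and 22.0 CPM in neuronal nuclei against 454 and 278 CPM in non-neuronal nuclei (edgeR adjusted p = 4.27e-07 and 4.18e-07). Pdgfra, the receptor that names these cells, averaged 5.79 and 43.9 CPM (edgeR adjusted p = 0.01). Kcnn3, a potassium channel through which these cells respond to purines, averaged 322 and 312 CPM and did not separate the fractions (edgeR adjusted p = 0.994). Signals that mesenchyme sends to its neighbours were lower for 8 of 17 genes and higher for none. Igf1, a growth factor, was at 0 counts in all 4 neuronal libraries and at 79.2, 28.1, 57.2 and 63.0 CPM in non-neuronal ones, at least 45.9-fold lower (edgeR adjusted p = 5.71e-05). Rspo1, which amplifies Wnt signals, averaged 1.78 and 72.4 CPM, and Sfrp1, which blocks them, 2.56 and 145 CPM (edgeR adjusted p = 0.000174 and 0.00185).

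Matrix genes as a whole were called in both directions, with 16 of 54 collagens and laminins lower and 5 higher. Lamb2, a laminin chain of muscle basement membrane, averaged 0.543 and 97.1 CPM (-7.37 ± 0.98, edgeR adjusted p = 1.45e-06). Col25a1, a membrane collagen made by neurons, stood at 368, 215, 216 and 145 CPM in neuronal and at 73.4, 11.5, 13.3 and 0.756 CPM in non-neuronal libraries (3.27 ± 0.78, edgeR adjusted p = 0.0043). Col27a1 averaged 1037 against 369 CPM, with its lowest neuronal library (532 CPM) under the highest non-neuronal one (541 CPM) (edgeR adjusted p = 0.00964). The calls of Col5a3, Col6a6 and Lamc3 ended in 3, 4 and 6 of the 8 fits that leave out 1 library (highest 0.0709 without non-neuronal library 4, 0.0699 without non-neuronal library 4 and 0.1 without non-neuronal library 3).

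Enteric glia surround the neurons, yet their markers were sparse in both fractions. Of 9 tested glial genes 3 were lower in neuronal nuclei and none was higher. Cdh19, a cadherin of the glial lineage, stood at 0.413, 6.50, 0 and 0.279 CPM against 57.8, 25.6, 91.9 and 20.6 CPM (-4.82 ± 1.19, edgeR adjusted p = 0.00571). Gfap, the glial filament, was at 0 counts in all 4 neuronal libraries and at 2.17 to 35.1 CPM in non-neuronal ones (edgeR adjusted p = 0.0145). Erbb3, the neuregulin receptor, averaged 6.32 and 74.6 CPM, a call that ended in 3 of the 8 fits that leave out 1 library (highest edgeR adjusted p 0.0809, without neuronal library 4). Sox10, the defining transcription factor of glia, averaged 5.36 against 48.7 CPM and was not called (edgeR adjusted p = 0.08, in a range of 0.000885 to 0.351 over all alternative settings). The summed glial markers were 13.8 to 28.4 CPM in neuronal and 128 to 392 CPM in non-neuronal libraries.

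Vessels and immune cells were also found on the non-neuronal side. Lyve1, the hyaluronan receptor of lymphatic vessels, stood at 0.413, 0.541, 0.256 and 1.67 CPM in neuronal and at 827, 386, 531 and 867 CPM in non-neuronal libraries (-9.76 ± 1.36, edgeR adjusted p = 4.26e-05). Prox1, the factor that sets lymphatic identity, averaged 0.239 and 104 CPM (edgeR adjusted p = 0.000286). Of 7 lymphatic markers 6 were lower, and of 11 blood endothelial markers 7. Some uncalled members had a higher mean in neuronal nuclei, with overlapping libraries. These were the lymphatic Pdpn (13.7 against 8.73 CPM) and the blood endothelial Esam (20.4 against 3.27 CPM) and Vwf (22.8 against 15.4 CPM). Cdh5, the cadherin of endothelial junctions, was at 0 counts in all neuronal libraries and averaged 49.2 CPM in non-neuronal ones, at least 39.7-fold lower (edgeR adjusted p = 0.00164). Abcc9, a channel subunit of pericytes and muscle, averaged 7.22 and 372 CPM (edgeR adjusted p = 1.67e-11). It was 1 of 5 lower pericyte genes among 6. The other, Notch3, averaged 4.78 and 1.57 CPM with overlapping libraries and was not called. Ptprc, the leukocyte antigen CD45, stood at 0, 0, 0 and 0.279 CPM against 20.7, 35.7, 38.9 and 60.2 CPM (edgeR adjusted p = 0.000661). Csf1r, the growth factor receptor of macrophages, averaged 0.474 and 35.9 CPM (edgeR adjusted p = 0.00342), 1 of 6 lower macrophage genes among 12.

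Transcripts of epithelium and mesothelium, which lie outside the muscle layer, were found in the non-neuronal libraries too. All 11 epithelial markers were lower in neuronal nuclei. Muc2, the gel-forming mucin of goblet cells, stood at 9.50, 10.6, 6.92 and 14.2 CPM in neuronal and at 1623, 11437, 2512 and 4845 CPM in non-neuronal libraries (-9.03 ± 1.0, edgeR adjusted p = 4.46e-06). It varied widely among the non-neuronal libraries and was high in all of them. Summed epithelial markers were 1915, 12909, 2789 and 5345 CPM, most of it Muc2, in non-neuronal libraries 1 to 4 of the colon and 350 to 831 CPM in those of the SPF small intestine. Muc16, a mucin of the mesothelium, averaged 4.03 and 773 CPM (-7.62 ± 0.55, edgeR adjusted p = 1.67e-11). The proliferation markers Mki67 and Top2a averaged 3.18 and 0 CPM against 331 and 41.5 CPM (edgeR adjusted p = 0.00314 and 0.00221). Mki67 stood at 45.3, 446, 152 and 682 CPM in non-neuronal libraries 1 to 4, as uneven among them as the epithelial sum but highest in a different library. Among the 15 named genes with the largest falls, Ern2, Cdh17 and Foxa1, which epithelium expresses, were at 0 in all neuronal libraries. The part of epithelial transcripts in the count of 1584 lower genes was not tested.

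At the other end, the largest fitted rises were in genes with few counts. Rasgrf1, an exchange factor for Ras, stood at 33.9, 37.1, 112 and 92.8 CPM in neuronal libraries and at 0, 0, 1.3 and 0 CPM in non-neuronal ones (7.49 ± 1.45, edgeR adjusted p = 0.000535). Arhgdig, a GDP dissociation inhibitor of small GTPases, stood at 21.1, 19.8, 27.2 and 24.8 CPM against 2 counts in all 4 non-neuronal libraries, a ratio of 178 with a counting interval of 48.2 to 1457 (edgeR adjusted p = 0.0125). Both were present in all 4 neuronal libraries, Arhgdig at nearly even levels, though Arhgdig overlaps Rgs11 on the opposite strand. Hmx3, a homeobox gene, stood at 244 CPM in neuronal library 1 and at 2.79 to 4.10 CPM in the others (edgeR adjusted p = 0.00687, and 0.407 without neuronal library 1). Gpr176, Tchh, Dusp4 and Pop7 also lost their calls when 1 library was left out, in 4, 1, 6 and 6 of 8 fits, with highest adjusted p of 0.0924 without neuronal library 2 and 0.0769, 0.148 and 0.142 without neuronal library 1. Syt10, a synaptotagmin, Gldc, a glycine-cleavage enzyme, and Gucy2g, a guanylyl cyclase, were at 0 counts in all non-neuronal libraries and averaged 11.8, 11.8 and 10.6 CPM in neuronal ones (edgeR adjusted p = 0.00674, 0.0127 and 0.01).

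Immediate early genes respond to handling as well as to activity. Of 14 tested, Jun and Dusp1 were lower in neuronal nuclei and none was higher. Dusp1, a phosphatase that ends MAP kinase signals, averaged 90.1 and 418 CPM (-2.27 ± 0.54, edgeR adjusted p = 0.00452). Jun averaged 22.3 and 135 CPM, and its call ended in 3 of the 8 fits that leave out 1 library (highest edgeR adjusted p 0.0743, without non-neuronal library 3). Egr1 ran from 115 to 1831 CPM in neuronal and from 72.0 to 1307 CPM in non-neuronal libraries, with its lowest value in library 4 of either fraction (edgeR adjusted p = 0.95). The spread of Egr1 within a fraction was thus wider than the difference between them.

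Hox genes encode position along the body axis, with low numbers toward the head and high numbers toward the tail. Of 30 tested, 11 were lower in neuronal nuclei and none was higher (median log2 fold change -2.89, or -1.83 with absent genes at their bound). Divided by number, a split chosen after the values were seen, none of 10 genes in groups 1 to 4 was called and their median was 0.6. Groups 5 to 8 had 5 of 11 lower (median -4.07, or -2.62 with absent genes at their bound). Groups 9 to 13 had 6 of 9 lower, with all 9 negative (median -6.75, or -3.75 with absent genes at their bound). Hoxd9 was at 0 counts in all neuronal libraries and at 39.4, 11.7, 7.05 and 8.56 CPM in non-neuronal ones, at least 13.5-fold lower (edgeR adjusted p = 0.000637). Hoxa10 was likewise at 0 against a mean of 24.1 CPM, at least 19.5-fold lower (edgeR adjusted p = 0.00726). Hoxa13, the most posterior gene of its cluster, stood at 0, 0, 0 and 0.279 CPM against 26.1, 28.4, 27.1 and 37.8 CPM (edgeR adjusted p = 0.00522). These posterior genes were found in all 4 non-neuronal libraries and hardly at all in neuronal ones. Hoxa2 and Hoxd3, from the anterior end, lay the other way, at 79.5 and 136 CPM against 33.0 and 27.5 CPM without overlap, and were not called (edgeR adjusted p = 0.203 and 0.165). Over all alternative settings the adjusted p ranged from 0.103 to 0.7 for Hoxa2 and from 0.0058 to 0.345 for Hoxd3. Hoxd3 shares exons with Hoxd4 and overlaps RNAs of the opposite strand, so its reads are uncertain. The Hoxc6 call ended without non-neuronal library 1 (edgeR adjusted p = 0.00199 with it and 0.0563 without). Which cells of the non-neuronal fraction carry the Hox transcripts was not tested.

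**Figure D5:**
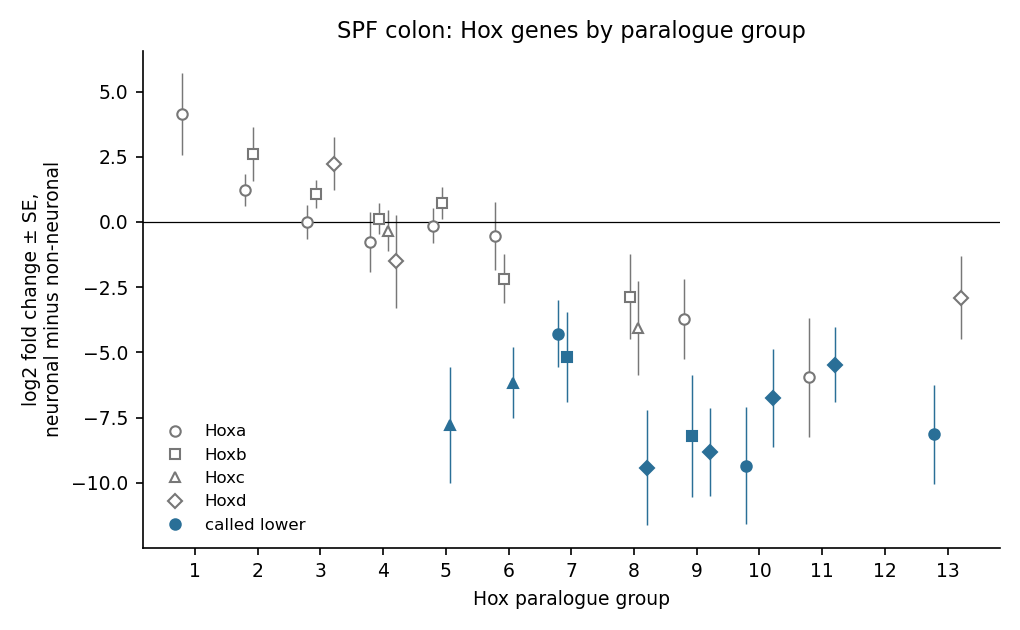
The log2 fold change, neuronal minus non-neuronal, of each of the 30 tested Hox genes is plotted by paralogue group, with its standard error as a bar, a symbol for the cluster and called genes filled. Groups 1 to 4 lie on both sides of 0, and all 9 genes of groups 9 to 13 lie below it.

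Gene length differed between called classes. Of 536 protein-coding genes longer than 300 kb, 13.8% (Wilson 95% interval 11.1 to 17) were higher in neuronal nuclei, against 1.94% (1.54 to 2.45) of 3549 genes shorter than 10 kb. The share called lower went from 11.9% to 6.88%. Called genes have a median length of 34.8 kb on the higher and 27.2 kb on the lower side, against 15.6 kb for all genes tested. The longest class also had higher levels, with a median of 50.8 CPM in neuronal nuclei against 8.21 CPM for the shortest, and the part of depth in these shares was not tested.

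The same fractions were sorted from the SPF small intestine, and the difference between them departed from that in the colon at 187 genes (0.892%; edgeR test of the fraction by segment interaction), 22 (0.105%) with a positive and 165 (0.787%) with a negative departure. The median departure over all genes was -0.35, and over the alternative settings it ranged from -0.62 (limma-voom) to -0.17 (no filter), with -0.24 under RLE size factors. Without SPF small intestinal non-neuronal library 1 the count was 484, and without SPF colon neuronal library 3 or 2 it was 107 or 123. Ano1 showed 1 of the lowest p-values. In the small intestine it averaged 247 CPM in the neuronal fraction (96.9 to 679) and 168 CPM in the non-neuronal fraction (36.4 to 397), where the colon had 0.579 and 125 CPM (departure -8.16 ± 1.03, edgeR adjusted p = 1.13e-05). Prkcq averaged 102 and 25.3 CPM there (-8.55 ± 1.36, edgeR adjusted p = 0.000432), and Kit 243 and 162 CPM (-4.41, edgeR adjusted p = 0.193). Summed markers of interstitial cells of Cajal were 734 to 2408 CPM in neuronal libraries of the SPF small intestine and 347 to 504 CPM in those of the colon, where most of the sum was Etv1. In the colon these markers thus lay almost wholly outside the neuronal fraction, Etv1 excepted, and in the small intestine they did not.

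Other departures concerned genes with less transcript in the small intestinal than in the colonic non-neuronal fraction. Dscaml1, a relative of Dscam, averaged 110 and 42.8 CPM in the neuronal and non-neuronal fractions of the colon and 92.0 and 0.0564 CPM in those of the small intestine (-8.43 ± 1.05, edgeR adjusted p = 1.13e-05). Dscam itself averaged 167 and 0.412 CPM in the small intestine (-5.47 ± 0.83, edgeR adjusted p = 0.000205). Fam155a and Prr36 had departures of -5.35 and -7.13 (edgeR adjusted p = 0.000105 and 0.000128). Between the colon fractions themselves Dscaml1 and Prr36 were not called (edgeR adjusted p = 0.131 and 0.359), and Prr36 overlapped. The pan-neuronal list had a median departure of -2.33, beside its higher sum in colonic non-neuronal libraries given above. Pde1c, a phosphodiesterase of cyclic nucleotides, departed upwards, at 374 and 73.1 CPM in the colon and 56.7 and 189 CPM in the small intestine (4.32 ± 0.67, edgeR adjusted p = 0.000345).

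In the germ-free colon the same fractions were sorted in 3 libraries each. The fraction by microbiota interaction had 0 genes called by edgeR, with 1413 at an unadjusted p under 0.05, while DESeq2 called 142 and limma-voom 1. The gene of lowest p was Bcl2l1, an inhibitor of cell death, with a departure of 6.75 ± 1.65 (edgeR adjusted p = 0.677). Dab2, an endocytic adaptor, departed by -4.63 ± 1.13 and Pdgfra by 5.65 ± 1.43 (edgeR adjusted p = 0.677 for both). Dab2 itself separated the SPF fractions, with 0.413 to 1.02 CPM in neuronal and 128 to 309 CPM in non-neuronal libraries (-8.21 ± 0.94, edgeR adjusted p = 2.2e-07).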

How the data were processed

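Nuclear RNA of sorted nuclei was amplified with the NuGEN Ovation RNA-Seq V2 kit and sequenced as 75-base single reads, per the labels' protocols. The authors deposited expected counts per gene, and the submitters' processing notes name RSEM 1.3.0, STAR 2.5.2, DESeq2 1.10.1 and GRCm38, with no role given. The sources used here do not state whether counting used strand. Of the deposited values 7.478% were not whole, and all were rounded to whole counts. GENCODE M21 matched 51719 of 51912 genes, and the 193 others held 0.1022% of the counts.

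The test was edgeR 4.0.16 (R 4.3.3), quasi-likelihood F with TMM scaling, over all 28 libraries with 1 mean for each of 8 groups. Genes passed edgeR's filter on low counts by group, p-values were adjusted by Benjamini-Hochberg over the 20964 genes tested, and calls were made at 0.05. SE is the log2 fold change divided by the square root of F. CPM used the library total. A gene at 0 in a fraction was given a bound from a floor of 3 counts per library, at the highest library floor of that fraction (1.24 CPM neuronal, 1.17 CPM non-neuronal). Intervals are at 95%. Those on ratios cover counting error only, and the Wilson intervals on shares of genes treat the genes as independent.

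Named genes were the 15 called genes of largest rise and 15 of largest fall whose higher fraction averaged 10 CPM or more without overlap, the 10 called genes of highest level in each direction, list members as examples, and the 8 called genes of lowest p for an interaction (5 of lowest p where fewer were called). Some genes that these rules name are not reported here. The members and the gene lists were chosen with earlier results of these data known. On counts simulated for this comparison over 19759 genes, the test called 0%, 6%, 22% and 44% of 50 genes changed 2-fold, 4-fold, 8-fold and 16-fold. No other genes differed between the simulated fractions, whereas 2270 genes were called in the data. The adjusted p threshold was then harder to reach, so these shares cannot be carried over to the data. Alternatives were DESeq2 1.42.0, limma-voom (limma 3.58.1), RLE scaling, other filters, fewer libraries, a replicate block and each library left out.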

Additional observations from a re-analysis of the deposited data

Results flagged for a closer look

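Among 136 groups of 4 libraries looked at, 18 held a library far from the other 3. For values of normal spread chance gives about 1 in 20, but that is no measure here, since 6 of the 18 are groups of 3 zeros and a few counts, and other genes were picked for a large rise or fall. The ribosomal protein share was 0.2906% in neuronal library 1 and 0.1869% to 0.2018% in the other neuronal libraries. Blood endothelial markers summed to 140.4 CPM in neuronal library 1 and to 33.58 to 46.53 CPM in the others. Most of the sum in library 1 came from Esam (76.83 CPM) and Vwf (44.61 CPM). Lymphocyte and mast cell markers summed to 6.767 CPM in neuronal library 2, against at most 0.8262 CPM.

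Several genes of large fitted rise were high in 1 neuronal library. Hmx3 stood at 243.7 CPM, Tchh at 72.29 CPM and Syt10 at 30.15 CPM in library 1, against highest values of 4.102, 13.26 and 6.965 CPM in the others. Gpr176 stood at 47.37 CPM and Clstn2 at 35.73 CPM in library 2, against at most 3.718 and 6.609 CPM. On the non-neuronal side Gsdmc2 and Tcim, 2 genes of large fall, stood at 362.0 and 217.4 CPM in library 2 and at most at 45.66 and 33.96 CPM elsewhere. Syn3 stood at 393.4 CPM in non-neuronal library 1 (205.4 to 223.9 in the others), and Wnk1 at 915.7 CPM in library 2 (1304 to 1336 in the others). Genes otherwise at 0 in non-neuronal nuclei had counts in 1 library, namely Arhgdig (0.522 CPM), Dusp4 (0.261 CPM) and Rasgrf1 (1.305 CPM) in library 3, Clstn2 (0.2519 CPM) in library 4, Pop7 (0.2165 CPM) in library 2 and Xkr7 (0.3903 CPM) in library 1.

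The difference between fractions departed from that in the small intestine at 187 genes by the edgeR interaction test. Among named genes the departures in log2 fold change, colon minus small intestine, were -6.74 for Ecscr, -8.63 for Cdh17, -8.87 for Selenbp1, -7.75 for Igf1, -7.04 for Kirrel and -2.14 for Ank2. Those of lowest p were -8.43 for Dscaml1, -8.16 for Ano1, -5.35 for Fam155a, -7.13 for Prr36, -5.47 for Dscam, 4.32 for Pde1c and -8.55 for Prkcq.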

How the results depend on the processing

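No gene called in both the reported fit and an alternative changed direction. Against 2270 genes called (686 higher, 1584 lower), DESeq2 called 3397 (1212 higher), limma-voom 3880 (1627 higher), the libraries of high Xist 837 (270 higher, 567 lower) and those of low Xist 420 (72 higher, 348 lower). The Xist subsets were chosen after seeing the data, hold fewer SPF samples and keep all germ-free libraries, which are low in Xist. For the 187 segment departures (22 higher, 165 lower), DESeq2 gave 810 (169, 641), no filter 630 (93, 537), high Xist 102 (4, 98) and low Xist 16 (0, 16). The microbiota departure had 0 genes in the reported fit, 142 by DESeq2 (100 higher, 42 lower), 1 by limma-voom (1 higher) and 30 with no filter (16, 14). The cause was not tested for tools and filters.

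Leaving out 1 library gave 1569 to 2157 genes called (372 to 629 higher, 1102 to 1528 lower), 107 to 484 segment departures (8 to 42 higher, 95 to 442 lower) and 0 microbiota departures. Differences in share ranged from -5.32 to -4.0 points (mitochondrial), -0.0922 to -0.0459 (ribosomal) and -6.56 to -4.1 (the 100 most abundant genes). The last was -1.94 without mitochondrial genes (exact permutation p = 0.286). With a mean of at least 2 CPM, 7.89% of genes under 10 kb, 9.73% of protein-coding genes and 8.23% of lincRNAs were lower, and 4.01% of protein-coding genes higher. In 100 bases, 0.659% of all and 2.21% of lower promoters held a CArG box. Genes near 3 counts, 0.65 to 1.24 CPM, are limited by depth.

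Same-numbered libraries of both fractions correlated at r = 0.021, 0.019, 0.019 and 0.041 in their deviations, each best with its own number. The highest r with another number was 0.018, 0.017, 0.005 and 0.029, so the lead was small and every r was low. That is at most a weak hint from the data and not the design. A replicate block gave 2076 genes called over all 28 libraries and 2158 with only the groups compared. Of the 2270 reported calls, these fits kept 1894 (83.4%) and 1620 (71.4%). With only the groups compared and no block, 1634 (72.0%) were kept.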
